A study of Mus musculus with 4 samples.

Results

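The 9 genes described here are 3 C/EBP transcription factors (Cebpa, Cebpb and Cebpd) and 6 genes of secreted acute phase or lipid-binding proteins (Lbp, Pltp, Lcn2, Saa3, C3 and Hp), out of 50679 genes in the deposited table. They were chosen by name, because Cebpd, Lbp and Pltp lay lower in both 211F libraries than in both WT libraries. The contrast between genotypes therefore chose the members, and their differences are given as a description with no test. RNA was sequenced from cultured mammary tumour cells of mice with PyMT, the middle T oncogene of polyoma virus, in 4 libraries: WT 1 and WT 2 with wild-type PCNA, and 211F 1 and 211F 2 with the PCNA 211F allele, named here as the labels name it (n = 2 per genotype). PCNA is a ring-shaped protein that tethers DNA polymerases to the strand they copy. Both genotypes carry PyMT, tumours of both came from mice 10 weeks old, and dissociated cells were captured with an antibody against the epithelial surface protein EpCAM and plated (density 100000) in a medium that held 10% serum. The labels give neither the promoter that drives PyMT nor whether an animal gave more than 1 library, so the spread shown is that between libraries.

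C/EBP proteins are leucine zipper transcription factors that bind DNA as dimers. In the liver and in epithelia they act with STAT3 and NF-kB to raise acute phase genes, whose secreted products bind iron carriers, lipids, haemoglobin or bacterial lipopolysaccharide. In the mammary gland Cebpb is needed for alveolar growth, and Cebpd is known as a STAT3 target that is raised when milk secretion ends.

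Levels are FPKM, a count of fragments divided by transcript length and by the size of the library, so levels of different genes can be set side by side. Differences are 211F minus WT of the mean log2(FPKM + 1), a scale that understates the difference of low genes. The labelled cell type could be checked in part: Epcam stood at 444 FPKM in WT 1 and 0.893 FPKM in WT 2, against 77.3 FPKM in 211F 1 and 450 FPKM in 211F 2. The summed level of 8 epithelial markers was 2918, 6.92, 3280 and 3344 FPKM in that order, so the defining epithelial transcripts were nearly absent from WT 2. The mesenchymal filament gene Vim was at 124 FPKM in WT 1 and 1634 FPKM in WT 2, against 1856 FPKM in 211F 1 and 1.86 FPKM in 211F 2. The libraries therefore differed in cell state within each genotype, and in bulk RNA fewer cells of a type cannot be told apart from less RNA per cell. The relative depth read from the lowest values was 1.72 for WT 2, 1.10 for 211F 1 and 0.934 for 211F 2, with WT 1 as 1.

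Cebpd was the C/EBP factor whose genotypes were separate. Cebpd (ENSMUSG00000071637, GRCm38 chromosome 16, 15887286 to 15891031, plus strand) stood at 21.9 FPKM in WT 1 and 37.3 FPKM in WT 2, against 4.18 FPKM in 211F 1 and 6.85 FPKM in 211F 2. Both WT libraries lay above both 211F libraries, by 3.19-fold for the closest pair and 8.92-fold for the widest. The group means were 29.6 ± 10.9 FPKM in WT and 5.52 ± 1.89 in 211F (SD, n = 2 each), and the difference was -2.21 ± 0.43 on the log2 scale (limma's SE). The difference was larger than the gap within WT (0.74) and the gap within 211F (0.60). Exons of Cebpd share 562 bases with exons of Spidr on the other strand, and whether the counting used strand is not stated. Spidr, a DNA repair scaffold gene, was at 16.9, 14.7, 14.3 and 11.5 FPKM in the order WT 1, WT 2, 211F 1 and 211F 2, a narrower range than that of Cebpd.

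Cebpb, the most abundant of the C/EBP factors, did not separate the genotypes. Cebpb (ENSMUSG00000056501, chromosome 2, 167688915 to 167690418, plus strand, a single exon) stood at 209.6 FPKM in WT 1 and 92.1 FPKM in WT 2, against 33.5 FPKM in 211F 1 and 177 FPKM in 211F 2. The groups overlapped, with WT 1 and 211F 2 high and 211F 1 lowest. The difference was -0.84 ± 0.95 (SE), and it was 0.34 without 211F 1. Its exon shares 312 bases with Tmem189 on the other strand. Tmem189 was at 54.5, 25.4, 32.7 and 42.4 FPKM in the order WT 1, WT 2, 211F 1 and 211F 2. It too was highest in WT 1 and then 211F 2, but lowest in WT 2. Whether the shared bases have a part in the Cebpb level was not tested.

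Cebpa, a factor best known from liver and fat cells, was low and highest in WT 1. Cebpa (ENSMUSG00000034957, chromosome 7, 35119293 to 35121928, plus strand) stood at 10.9 FPKM in WT 1 and 1.03 FPKM in WT 2, against 1.72 FPKM in 211F 1 and 4.02 FPKM in 211F 2. The groups overlapped, and WT 1 exceeded WT 2 10.5-fold. The difference of -0.41 ± 1.02 (SE) was 0.86 without WT 1 and 0.03 without 211F 1. The 3 factors thus had 3 orders of libraries: Cebpd was highest in WT 2, Cebpb was high in WT 1 and 211F 2, and Cebpa was highest in WT 1 and lowest in WT 2.

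**Figure D1:**
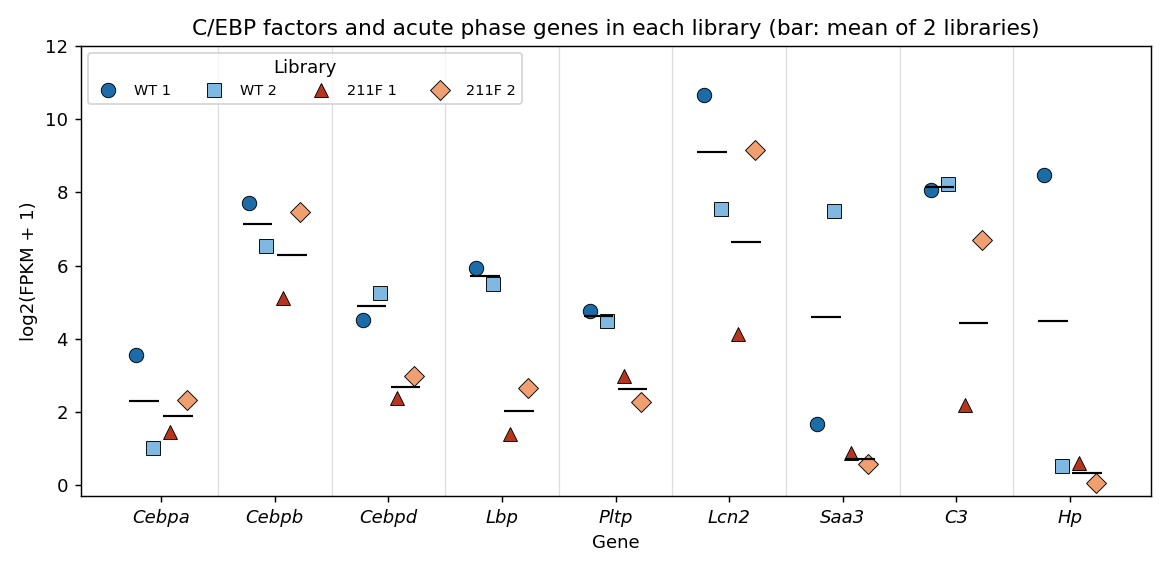
Level of each of the 9 genes in the 4 libraries as log2(FPKM + 1); each symbol is 1 library and each bar the mean of the 2 libraries of a genotype. Both WT libraries lie above both 211F libraries for Cebpd, Lbp, Pltp, Saa3 and C3, while Cebpa, Cebpb, Lcn2 and Hp overlap; the high WT mean rests on WT 2 for Saa3 and on WT 1 for Hp.

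Promoter sequence was available from RefSeq (build GRCm38.p6) for 6 of the 9 members: Cebpa, Cebpb, Pltp, Lcn2, Saa3 and C3. Cebpd, Lbp and Hp were not matched in that table. The 250 bases upstream of each RefSeq start were searched on both strands for the letters TTGCNNAA (a C/EBP site, reverse complement TTNNGCAA), TTCNNNGAA (a STAT site) and, for NF-kB, GGG and TTTCC with any 2 bases between them (reverse complement GGAAA and CCC). The C/EBP letters occurred once in each of the 4 secreted members with a promoter entry (Pltp, Lcn2, Saa3 and C3) and in neither Cebpa nor Cebpb. Of all 32851 promoter windows of that length, 9.56% held the C/EBP letters, 7.02% the STAT letters and 1.41% the NF-kB letters. The STAT and NF-kB letters were found in 0 of the 6 members. A match is a description of the letters and not a binding site.

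The stretches that hold the C/EBP letters are shown because these are the members with a match; capitals mark the match, and each reads 5′ to 3′ on the gene's own strand, which is minus for all 4. The match lies at -161 to -154 from the start in Pltp, -216 to -209 in Lcn2, -99 to -92 in Saa3 and -45 to -38 in C3. Bases that GENCODE M21 puts in an exon of the gene were left off, and for Lcn2, where the match lies in an exon of another annotated transcript, 30 bases are shown.
Pltp, chr2:164857712-164857958: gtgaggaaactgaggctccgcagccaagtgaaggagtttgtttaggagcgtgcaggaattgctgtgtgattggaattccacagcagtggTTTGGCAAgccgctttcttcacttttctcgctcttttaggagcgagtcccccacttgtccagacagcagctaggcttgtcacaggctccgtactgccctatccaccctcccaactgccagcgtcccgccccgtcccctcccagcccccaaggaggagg
Lcn2, chr2:32387937-32387966: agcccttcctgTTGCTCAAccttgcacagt
Saa3, chr7:46715701-46715926: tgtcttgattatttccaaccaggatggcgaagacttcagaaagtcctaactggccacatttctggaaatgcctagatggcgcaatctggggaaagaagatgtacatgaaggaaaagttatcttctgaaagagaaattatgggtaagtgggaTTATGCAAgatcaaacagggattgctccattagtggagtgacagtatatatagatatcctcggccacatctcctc
C3, chr17:57228137-57228386: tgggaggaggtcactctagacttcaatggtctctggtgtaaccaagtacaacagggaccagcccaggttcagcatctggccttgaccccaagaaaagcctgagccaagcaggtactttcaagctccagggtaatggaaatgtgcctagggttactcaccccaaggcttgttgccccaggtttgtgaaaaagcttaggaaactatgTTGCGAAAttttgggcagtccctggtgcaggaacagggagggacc
The 4 genes with these letters did not share a pattern over the libraries, as their levels show.

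Lbp and Pltp, relatives in the family of lipid transfer and lipopolysaccharide binding proteins, had separate genotypes with small spread in WT. Lbp, which hands bacterial lipopolysaccharide to CD14 (ENSMUSG00000016024, chromosome 2, 158306493 to 158332852, plus strand), stood at 60.3 FPKM in WT 1 and 44.3 FPKM in WT 2, against 1.65 FPKM in 211F 1 and 5.30 FPKM in 211F 2. The closest pair of a WT and a 211F library differed 8.36-fold and the widest 36.6-fold. The Lbp difference was -3.69 ± 0.53 (SE), against a gap of -0.44 within WT and of 1.25 within 211F.

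Pltp, which moves phospholipids between lipoproteins (ENSMUSG00000017754, chromosome 2, 164839518 to 164857711, minus strand), stood at 26.2 FPKM in WT 1 and 21.4 FPKM in WT 2, against 6.97 FPKM in 211F 1 and 3.87 FPKM in 211F 2. Both 211F libraries lay below both WT libraries, 3.07-fold for the closest pair and 6.77-fold for the widest, and the difference was -1.99 ± 0.38 (SE). Its order within 211F was the reverse of that of Cebpd and Lbp: 211F 2 was the lowest library for Pltp, and 211F 1 for the other pair. Exons of Pltp share 495 bases with Ctsa, a lysosomal protease gene on the other strand, which was at 59.8, 131, 89.5 and 74.3 FPKM in the order WT 1, WT 2, 211F 1 and 211F 2.

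By their mean level C3 and Lcn2 were the most abundant secreted members, and both were lowest in 211F 1. C3, the central protein of the complement cascade (ENSMUSG00000024164, chromosome 17, 57203970 to 57228136, minus strand), stood at 268 FPKM in WT 1 and 297 FPKM in WT 2, against 3.54 FPKM in 211F 1 and 103 FPKM in 211F 2. The genotypes did not overlap, but 211F 2 exceeded 211F 1 29.0-fold and lay within 2.61-fold of WT 1. The C3 difference was -3.71 ± 1.60 (SE) and was -1.45 without 211F 1. The gap between both 211F libraries, 4.51, was larger than the difference between genotypes.

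Lcn2, lipocalin 2, which withholds iron by binding bacterial siderophores (ENSMUSG00000026822, chromosome 2, 32384633 to 32388252, minus strand), stood at 1609 FPKM in WT 1 and 184 FPKM in WT 2, against 16.4 FPKM in 211F 1 and 570 FPKM in 211F 2. The genotypes overlapped, since 211F 2 lay above WT 2. The difference of -2.45 ± 2.10 (SE) was 0.06 without 211F 1, so its direction rested on that library. Lcn2 had the same order of libraries as Cebpb, with WT 1 highest, then 211F 2, WT 2 and 211F 1. Vim was lower in the first 2 of these libraries than in the last 2, and whether this has a part in the Lcn2 and Cebpb levels was not tested. WT 1 and 211F 2 held both highest values in 24.8% of tested genes, more than any other pair of libraries. Across tested genes they also correlated most (r = 0.920, against 0.748 within WT and 0.838 within 211F).

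Saa3 and Hp were each high in a single library. Hp passed the filter on low values only through that library. Saa3 lay under 1 FPKM in both 211F libraries and passed only through the WT libraries. Saa3, a serum amyloid A made mainly outside the liver (ENSMUSG00000040026, chromosome 7, 46711998 to 46715700, minus strand), stood at 2.19 FPKM in WT 1 and 179 FPKM in WT 2, against 0.830 FPKM in 211F 1 and 0.481 FPKM in 211F 2. WT 2 exceeded WT 1 82.0-fold, which is more than the 2.64-fold and 4.55-fold by which WT 1 exceeded the 211F libraries. The Saa3 difference was -3.86 ± 2.08 (SE) and was -0.95 without WT 2. Markers of fibroblasts summed over 8 genes were also highest in WT 2, at 1078 FPKM against 12.2 in WT 1, 46.0 in 211F 1 and 6.27 in 211F 2. Most of the sum in WT 2 was Col1a1, Col1a2 and Col3a1, at 437, 416 and 118.5 FPKM. Thy1 went the other way, at 1.67 FPKM in WT 2 and 10.7 FPKM in 211F 1. Pdgfrb was at 23.9 FPKM in WT 2 and 19.5 FPKM in 211F 1. Of those 8 genes 7 reached 1 FPKM in WT 2 and between 1 and 5 did so elsewhere, and Lum was near 0 in each library. The part of fibroblasts in the Saa3 level was not tested.

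Hp, haptoglobin, which binds free haemoglobin (ENSMUSG00000031722, chromosome 8, 109575128 to 109579172, minus strand), stood at 356 FPKM in WT 1 and 0.431 FPKM in WT 2, against 0.519 FPKM in 211F 1 and 0.0516 FPKM in 211F 2. The last value is below that of 3 fragments over the exons of Hp, 0.0568 FPKM, and is read as near 0. The difference of -4.16 ± 2.83 (SE) was -0.18 without WT 1. Csn1s1, a milk protein gene, was high in the same library, at 458 FPKM in WT 1, with no other library above 0.195. The whole list of 6 milk genes summed to 484 FPKM in WT 1, most of it Csn1s1. In the others it summed to between 0.718 and 5.15. Csn2, Csn3 and Btn1a1 were at 8.29, 5.33 and 11.4 FPKM in WT 1. Btn1a1 was also at 4.43 and 4.53 FPKM in the 211F libraries. Wap was at 0 in WT 1, and Lalba was at 0 in all 4 libraries. The part of milk-secreting cells in the Hp level was not tested. Haptoglobin is also made by liver and fat cells. The 7 liver markers summed to 5.22 FPKM in WT 1 and to between 1.60 and 3.32 in the others, with Ttr at 1.57 to 2.85, Trf at 2.55 in WT 1 and Alb at 0 in all 4 libraries. The 7 fat cell markers summed to between 0.109 and 2.30 FPKM, with Fabp4 at 2.28 in WT 2 and Adipoq at 0 in all 4. The part of such cells in the Hp level was not tested.

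All 9 members had a mean of at least 1 FPKM and a negative difference, with a median of -2.45 against 0.03 over the 12767 genes tested. Of those tested genes 46.9% had a negative difference. The groups did not overlap in 5 of the 9, all lower in 211F (11.6% of tested genes were so), and in 4 of the 9, Cebpd, Lbp, Pltp and C3, each of the 4 WT to 211F pairs was apart by 1 log2 unit or more (0.548% of tested genes). Among the 5, Saa3 passed the filter on low values only through the WT libraries. Since the choice of members used this contrast, nothing is read from these counts. The members did not differ alike in each pair of libraries. Against WT 1 all 9 were lower in 211F 1 (median -2.61, 48.1% of tested genes lower) and all 9 in 211F 2 (median -1.49, 44.3%). Against WT 2, 7 were lower in 211F 1 (median -2.89, 50.6% of tested genes lower) and 6 in 211F 2 (median -1.52, 48%). Cebpa was higher in both, Cebpb and Lcn2 were higher in 211F 2, and Hp was 0.09 above WT 2 in 211F 1.

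**Figure D2:**
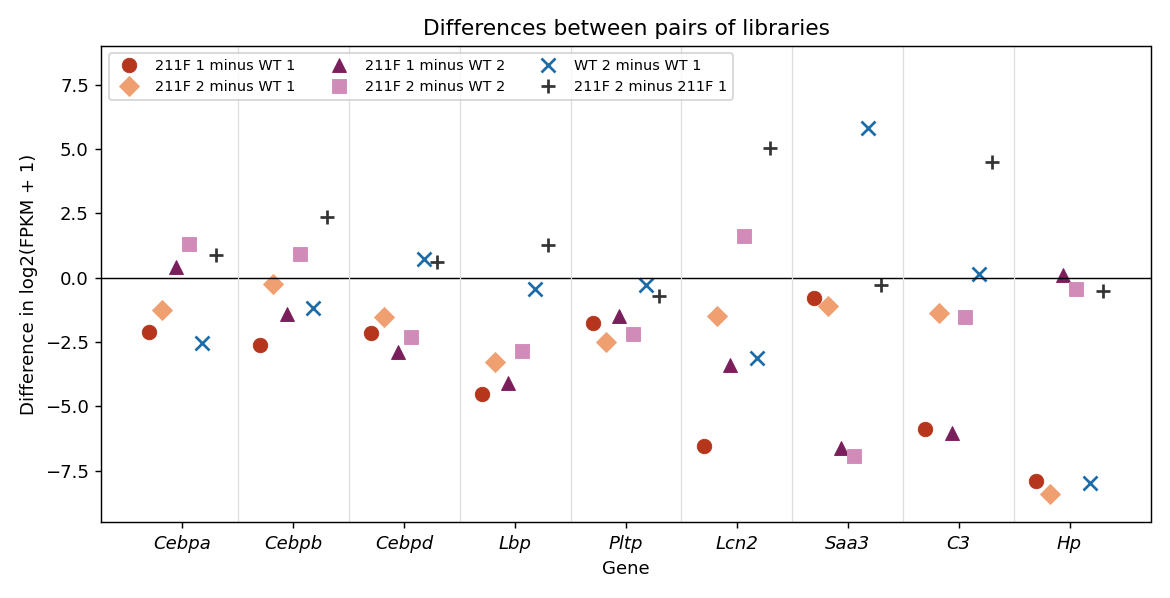
Differences in log2(FPKM + 1) between pairs of libraries for the 9 genes; filled symbols are the 4 pairs of a 211F and a WT library, and crosses and plus signs the pairs within a genotype. For Cebpd, Lbp and Pltp the 4 filled symbols lie below 0 and close together, while for Lcn2, Saa3, C3 and Hp a pair within a genotype lies far from 0 (5.04 for Lcn2, 5.82 for Saa3, 4.51 for C3 and -7.96 for Hp).

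Libraries of the same genotype differed by at least 1 log2 unit in 5 members within WT and in 4 within 211F, against 24.5% and 19.1% of tested genes. The difference between genotypes was larger than both of these gaps in 3 members, Cebpd, Lbp and Pltp, the same 3 that the choice rests on (16.2% of tested genes, in either direction). No member was highest in a 211F library: WT 1 was the highest library for 6 members (21.2% of tested genes) and WT 2 for 3 (30.2%). The lowest library was 211F 1 for 5 members (23.1% of tested genes), 211F 2 for 3 (20.2%) and WT 2 for Cebpa alone (29.1%).

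The genes most like a member were found by the root mean square distance between log2(FPKM + 1) profiles over the 4 libraries, each centred on its own mean, among 11350 protein-coding genes. Nearest to Cebpd were Kcnj2 (a potassium channel, distance 0.20), Kif21b (a kinesin, 0.21), Nos2 (inducible nitric oxide synthase, 0.23) and Txnip (an arrestin that restrains glucose uptake, 0.26). Of these, Nos2 was at 3.01 FPKM in WT 1 and 7.97 FPKM in WT 2, against 0.186 FPKM in 211F 1 and 1.16 FPKM in 211F 2. Kcnj2 was at 0.108 FPKM in 211F 1 and 0.295 FPKM in 211F 2. Both Nos2 and Kcnj2 passed the filter on low values only through the WT libraries. Nearest to Lbp were Steap4 (a metal reductase, 0.57), Pitx1 (a homeobox factor, 0.62), Txnip (0.67) and Tgfbi (a matrix protein, 0.78), and Cebpd ranked 7 among the genes compared. Steap4 was at 145, 59.5, 1.60 and 14.8 FPKM in the order WT 1, WT 2, 211F 1 and 211F 2.

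Nearest to Pltp were Inha (0.12), Dyrk1b (0.19), Tcp11l2 (0.19) and Adamts3 (0.20), all low genes of at most 7.62 FPKM. Inha and Adamts3 were at 0 in 211F 2 and passed the filter on low values only through the WT libraries. Nearest to Lcn2 were Tmem45a (0.88), Mgst1 (a glutathione transferase, 0.96), Sntb1 (1.00) and Epb41l4a (1.06), and among the members C3 ranked 23 and Cebpb 37. Mgst1 was at 190 FPKM in WT 1 and 40.7 FPKM in WT 2, against 11.2 FPKM in 211F 1 and 95.3 FPKM in 211F 2. Genes near Cebpd, Lbp or Pltp are low in 211F by this way of finding them, since those members were chosen on that contrast. Profiles of 4 points leave many genes alike, so these distances are a description.

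Over all genes limma called 0 genes lower and 0 higher at an adjusted p of 0.05 (0% in each direction), with a smallest adjusted p of 0.9999, and 241 genes had an unadjusted p under 0.05. Genes of 7 lists around the members were read in the same fit: C/EBP relatives, acute phase proteins, complement, lipopolysaccharide recognition and lipid transfer, cytokines and their receptors, signal transducers, and genes of post-lactational involution. Outside the members 66 of their genes were tested, and limma called 0 of them lower and 0 higher. The groups did not overlap in 16 of the 66 lower in 211F (24.2%, against 11.6% of tested genes) and in 4 higher (6.06%, against 15.2%). An unadjusted p under 0.05 was seen in 5 of the 66 lower (7.58%, against 0.995% of tested genes) and in 0 higher (against 0.893%). Some genes in these counts, such as Abca1, Abcg1, Cfb and Serpina3n, passed the filter on low values only through the WT libraries. The median difference of the 66 was -0.38.

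Among the other C/EBP relatives, Cebpg, a partner without an activating domain, had overlapping groups, at 35.5 and 21.4 FPKM in the WT libraries against 23.8 and 25.6 FPKM in the 211F libraries. Ddit3, the stress-induced factor CHOP, was at 7.61 and 39.8 FPKM in the WT libraries against 20.0 and 7.39 FPKM in the 211F libraries, with overlapping groups. Cebpe was at 0 in all 4 libraries.

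Of 30 acute phase genes 12 were tested, of which 5 were members. The 7 others (median -1.42, limma called 0) had negative differences, against 46.9% of tested genes. The filter had a part in this: Saa1 and Lrg1 passed it only through WT 1, and of the 18 genes under it 5 had a negative and 4 a positive difference. With no filter the median was -0.28, and it was -0.29 without WT 1 and -2.21 without WT 2. Ptx3, a secreted pentraxin, was at 16.0 FPKM in WT 1 and 182 FPKM in WT 2, against 3.05 FPKM in 211F 1 and 0.362 FPKM in 211F 2, a difference of -4.57 ± 1.36 (SE). Ptx3 was highest in WT 2, as Saa3 was. Serpina3n, a protease inhibitor with close paralogs, was at 3.40 and 3.91 FPKM in the WT libraries against 0.603 and 0.156 FPKM in the 211F libraries. Those groups too were separate, but Serpina3n passed the filter only through the WT libraries.

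Cp, ceruloplasmin, a copper-carrying ferroxidase, was at 357 FPKM in WT 1 and 140 FPKM in WT 2, against 48.8 FPKM in 211F 1 and 140 FPKM in 211F 2. Il1rn, an antagonist of the IL-1 receptor, was at 109, 54.7, 24.6 and 79.7 FPKM in that order, again lowest in 211F 1. Orm1, an orosomucoid with near-identical paralogs, stood at 21.0 FPKM in WT 1 and at 18.9 FPKM in 211F 2, but only at 0.767 FPKM in WT 2 and 0.135 FPKM in 211F 1. The orders of Il1rn and Orm1 over the 4 libraries were those of Lcn2 and Cebpb. WT 1 and 211F 2 held both highest values in 24.8% of tested genes, so such an order is not particular to these genes.

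Some acute phase genes were seen in WT 1 nearly alone, as Hp was; these were chosen after their values were seen. Saa1 was at 8.24 FPKM in WT 1, with no other library above 0.129, and Lrg1 at 4.25 and at most 0.0219. Saa1 and Saa2 are near-identical copies, so reads may be split between them. Of the 30 listed genes 9, among them Crp, Apcs, Fgb and Fgg, were at 0 in all 4 libraries.

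Complement genes outside C3 were often highest in a single library. Of 19 listed, 18 were in the table and 8 besides C3 were tested. Of these 6 had a negative (46.9% of tested genes) and 2 a positive difference, with a median of -0.83 (limma called 0). That median was -1.66 without WT 1, -0.25 without WT 2, -1.25 without either 211F library, -1.72 at a mean of at least 5 FPKM and -0.17 with no filter. C1s1, a protease of the first complement component, was at 2.26 FPKM in WT 1 and 128 FPKM in WT 2, against 2.49 FPKM in 211F 1 and 1.34 FPKM in 211F 2, and its partner C1ra at 1.78, 32.9, 2.25 and 1.68. Cfb, factor B of the alternative pathway, was at 1.37 and 5.03 FPKM in the WT libraries against 0.316 and 0.840 FPKM in the 211F libraries. Its groups were separate, but it passed the filter only through the WT libraries. Clu, clusterin, was at 463, 38.4, 67.7 and 307 FPKM in the order WT 1, WT 2, 211F 1 and 211F 2.

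**Figure D3:**
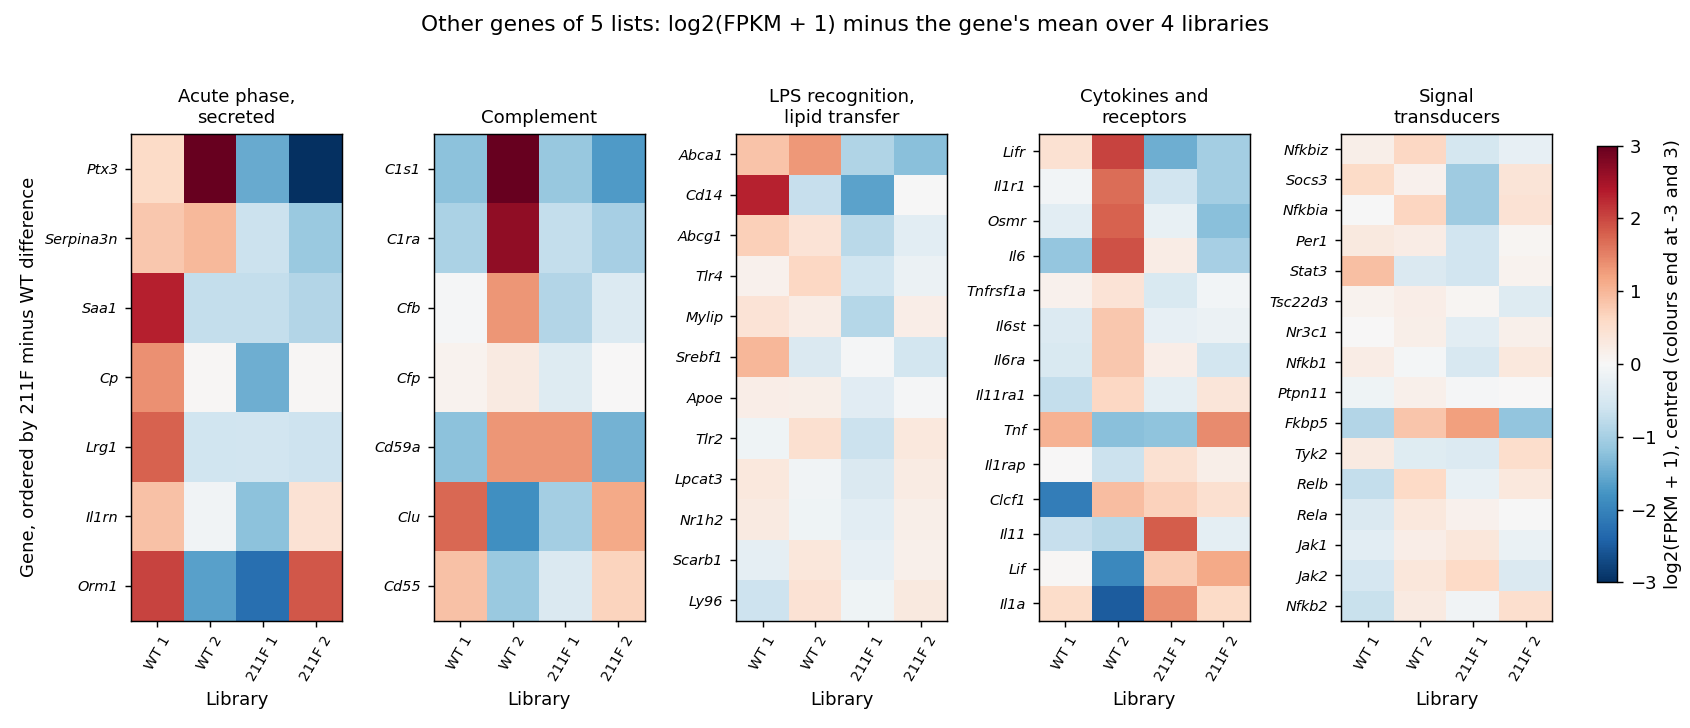
Tested genes of 5 lists, without the 9 members, as log2(FPKM + 1) minus the gene's own mean over the 4 libraries; columns are libraries, rows genes ordered by the 211F minus WT difference, and a gene in 2 lists is drawn once and 1 gene is not drawn. Abca1, Abcg1 and Serpina3n are higher in both WT libraries, while C1s1 and C1ra are high in WT 2 alone and Clu and Orm1 in WT 1 and 211F 2.

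Around Lbp and Pltp, the cholesterol exporter genes Abca1 and Abcg1 were lower in both 211F libraries, where they lay under 1 FPKM. Both passed the filter on low values only through the WT libraries, so a low 211F level is in part set by the filter. Of 12 tested genes of lipopolysaccharide recognition and lipid transfer besides these members, 11 had a negative difference (46.9% of tested genes did). The median was -0.47, and -0.17 without 211F 1, and limma called 0. The groups of 5 did not overlap, all lower in 211F (11.6% of tested genes), with Mylip apart only by 12.8 against 12.5 FPKM. Abca1, which loads cholesterol and phospholipid onto apolipoproteins, was at 5.57 FPKM in WT 1 and 7.87 FPKM in WT 2, against 0.925 FPKM in 211F 1 and 0.523 FPKM in 211F 2, a difference of -2.16 ± 0.44 (SE). Abcg1, its relative, was at 2.34 and 1.70 FPKM in the WT libraries against 0.153 and 0.617 FPKM in the 211F libraries.

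Mylip, a ubiquitin ligase for the LDL receptor, was at 14.6 and 12.8 FPKM in the WT libraries against 5.50 and 12.5 FPKM in the 211F libraries. Nr1h2, a liver X receptor gene, was at 56.3 and 42.3 FPKM against 37.6 and 52.8, with overlapping groups. Srebf1, a regulator of lipid synthesis, was at 127 and 46.9 FPKM in the WT libraries against 62.2 and 43.1 FPKM in the 211F libraries, also overlapping.

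Tlr4, the receptor that Lbp serves, was at 8.49 and 12.4 FPKM in the WT libraries against 4.77 and 6.75 FPKM in the 211F libraries. Cd14, its co-receptor, was chosen after its values were seen and was at 67.2 FPKM in WT 1 and 7.53 FPKM in WT 2, against 3.55 FPKM in 211F 1 and 12.6 FPKM in 211F 2, with overlapping groups. Ptprc, the pan-leukocyte antigen, reached no more than 0.0180 FPKM in any library. The 13 myeloid and neutrophil markers summed to 397 FPKM in WT 1 and 5.96 FPKM in WT 2, against 6.78 FPKM in 211F 1 and 56.0 FPKM in 211F 2. Most of the sum in WT 1 and 211F 2 was Ltf, lactoferrin, also a milk protein, at 379 and 49.0 FPKM, while Cd68 was the largest part in WT 2 and 211F 1, at 3.84 and 2.56 FPKM. S100a8 reached 13.5 FPKM in WT 1, where S100a9 was at 1.95. In 211F 2 they stood at 2.42 and 2.20 FPKM, and in the other two libraries S100a8 was at most 0.667 and S100a9 at 0. Of the 13, between 2 and 4 reached 1 FPKM in a library, Csf1r reached at most 1.39, and Elane was at 0 in all 4 libraries. The part of such cells in the Cd14 and Lbp levels was not tested.

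Genes of the cytokines that raise acute phase proteins and of their receptors lay on both sides when read as 1 list. Split after the values were seen, Il6 was the only tested ligand with a negative difference (-0.76). Il1a, Lif, Il11, Clcf1 and Tnf were positive (0.22 to 1.95), of which Clcf1 and Tnf overlapped and Il11 passed the filter only through 211F 1. Of the receptor genes only Il11ra1 (0.08) and Il1rap (0.64) were positive. Of 14 tested, 7 had a positive and 7 a negative difference (46.9% of tested genes were negative). The median was -0.14 (limma called 0), and it was -0.63 without WT 1, 0.30 without WT 2, 0.02 without 211F 1 and 0.04 with no filter. The groups were separate for 4 higher (15.2% of tested genes) and 3 lower in 211F (11.6%). The ligand gene Lif was at 20.6 FPKM in WT 1 and 4.46 FPKM in WT 2, against 34.7 FPKM in 211F 1 and 45.4 FPKM in 211F 2 (1.91 ± 0.75, SE). Its receptor gene Lifr lay the other way, at 8.97 and 28.9 FPKM in the WT libraries against 1.65 and 2.61 FPKM in the 211F libraries (-2.48 ± 0.66, SE). Il1a was at 8.54 and 0.160 FPKM in the WT libraries against 16.1 and 8.69 FPKM in the 211F libraries, and its receptor gene Il1r1 at 4.38 and 17.0 against 2.79 and 1.77. Il1rap, the accessory chain of that receptor, was at 19.6 and 11.9 FPKM in the WT libraries against 27.0 and 22.1 FPKM in the 211F libraries.

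Il6st, the signalling chain shared by this cytokine family, was at 49.5, 116, 55.5 and 58.5 FPKM in the order WT 1, WT 2, 211F 1 and 211F 2. Osmr was highest in WT 2, at 85.5 FPKM against 9.61 to 20.7 elsewhere. The separation of Il1a in WT 1 from 211F 2 was narrow (8.54 against 8.69 FPKM).

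Signal transducers lay on both sides as well: of 16 tested, 9 had a negative and 7 a positive difference, with a median of -0.09 (limma called 0), which was -0.27 without 211F 2, -0.26 without WT 1, -0.16 without WT 2 and 0.02 without 211F 1. Stat3 was at 188 FPKM in WT 1 and 74.0 FPKM in WT 2, against 67.1 FPKM in 211F 1 and 108 FPKM in 211F 2, with overlapping groups. Nfkbiz, an inhibitor-family protein that acts as a cofactor for NF-kB at Lcn2 and related genes, was at 40.4 and 55.5 FPKM in the WT libraries against 24.5 and 29.8 FPKM in the 211F libraries (-0.79 ± 0.28, SE). Nfkbia, the NF-kB inhibitor, was at 73.7, 117, 35.1 and 101 FPKM in the order WT 1, WT 2, 211F 1 and 211F 2. The groups did not overlap for 3 of the 16, Nfkbiz, Per1 and Tsc22d3, all lower in 211F (11.6% of tested genes). Tsc22d3 was apart only by 4.62 FPKM in WT 1 against 4.41 in 211F 1.

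Of 14 tested genes of post-lactational involution besides Cebpd, 12 had a negative (46.9% of tested genes) and 2 a positive difference, with a median of -0.49 (limma called 0). Among them Stat3, Socs3, Cd14, Lif, Osmr, Lrg1 and Clu are also counted in the lists above. Lif alone had separate groups. The cysteine protease gene Ctsl was at 196 and 157 FPKM in the WT libraries against 91.1 and 184 FPKM in the 211F libraries, and Capg, an actin-capping protein gene, at 327 and 119 against 164 and 205, both with overlapping groups. Leaving out WT 1 gave an involution median of 0.04 and leaving out WT 2 one of -0.95, and the values were -0.07 when 211F 1 was dropped and -0.87 when 211F 2 was.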

How the data were processed

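The values are FPKM, which the authors deposited as 1 table of 50679 Ensembl identifiers by 4 libraries. The submitters' processing notes list TopHat2 2.0.13, DESeq2 and GRCm38 with no role; the program behind the FPKM values, its annotation and its strand setting are not stated there. Symbols matched 50369 identifiers. Genes averaging 1 FPKM or more were fitted as log2(FPKM + 1) with limma 3.58.1 in R 4.3.3 (two-sided, trended prior variance, Benjamini-Hochberg over all tested genes). The fit was also run on simulated data with a small spread between libraries. Many genes here differed more within a genotype, so that run does not show how the fit does on these data. With 2 libraries per genotype the smallest two-sided exact permutation p is 0.333, so none was run.

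No read counts were used. In 1971 genes with 1 annotated transcript of at least 3000 bp, 91.7% to 93.2% of the lowest values fell within 0.1 of a whole fragment, which gives relative depth if libraries were not rescaled. Positions and exon overlaps are from GENCODE M21.

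The members, the 7 lists, the 7 marker lists and the alternatives were chosen with earlier results of these data known. Named genes were the 9 members, up to 4 separate genes per list and direction, the 3 highest of each list and the 4 nearest profiles; others are said to be chosen after their values were seen. A gene that the rule took is not reported here.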

Additional observations from a re-analysis of the deposited data

How the results depend on the processing

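limma called 0 genes in the analysis as designed and in all 12 alternatives with a test. Genes at an unadjusted p under 0.05 were 241 as designed, 745 with no filter on low values, where more genes were tested, and 142 with the replicate block; with 1 library removed they were 221 to 836, of which 836 without WT 1. The labels do not say whether the replicate numbers pair libraries, and across genes the deviations of libraries with the same number correlated at r = -0.465. With the block the median of the 9 members was -2.45 and 0 genes were called. That median was -3.07 at a mean of at least 5 FPKM, where Cebpa drops out, -1.49 for WT 1 against 211F 2 alone, and, with 1 library removed at a time, -3.71 to -1.85. Cebpd, Lbp, Pltp, Saa3, C3 and Hp were negative in all 13 alternatives; for the members with separate groups the choice of libraries cannot turn the sign. Cebpa turned without WT 1 and without 211F 1, and Cebpb and Lcn2 without 211F 1. With 1 library removed, the remaining one of its genotype is taken to vary as the other genotype does. The median of the 7 other acute phase genes went from -1.42 to -2.67 with a pseudocount of 0.1 and to -0.70 with one of 5. With 2 libraries per genotype the spread between libraries limits what can be called.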
